A study of Mus musculus with 60 samples.

Results

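The lower jaw of the mouse embryo at E13.5 (embryonic age in days) was compared along its length, the distal part toward the chin against the proximal part toward the jaw joint and ear. The comparison rests on 6 of the 60 arrays of the series, chosen by their titles: 3 arrays of distal mandible and 3 of proximal mandible. All 6 came from C57Bl/6 embryos with no stated genetic change or treatment, and all were labelled batch 1. The series holds Affymetrix Mouse Genome arrays of mandible and maxilla, each split into a distal and a proximal piece, at 5 ages, with 3 arrays in each of the 20 groups. Other settings of the same design, 3 in all, were used for comparison, namely distal against proximal mandible at E14.5 (batch 1), distal against proximal mandible at E12.5 (batch 2) and distal against proximal maxilla at E13.5 (batch 2). Whether separate embryos gave the 3 arrays of a group is not stated. The p-values therefore measure only the spread between arrays of a group, pooled over all 20 groups. That spread may be technical and need not be of the same kind in every group.

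The mandible forms from the first pharyngeal arch. Its mesenchyme comes largely from neural crest, and signals from the covering epithelium, among them Shh, Bmp and Fgf proteins, pattern it. Transcription factors of the Hand family mark its distal part, and Dlx factors act in nested domains along the arch. At this age Meckel's cartilage, a rod that runs the length of the jaw, lies beside newly forming membrane bone, tooth germs, tongue and jaw muscle, and nerves from the trigeminal ganglion.

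Signals are on the log2 scale, where 1 unit is a factor of 2, and every difference below is distal minus proximal. Array medians lay between 6.12 and 6.15, and the number of arrays limits the precision. A gene was called at an adjusted p under 0.05 (limma, Benjamini-Hochberg over 18193 genes), and a list member rose or fell only if called. The table has no detection calls, so a limit of 4.78 was set, the 25th percentile of the array on which it was highest. A gene with a group mean no higher than this was not shown to be present there, and its fold is given against the limit as a lower bound. The tissue field calls the pieces bone. The defining bone gene Sp7 was measured well above that limit in both (9.43, 9.26 and 9.57 distally, 8.42, 8.39 and 8.48 proximally). Markers of muscle, cartilage, epithelium, nerve and blood were measured too, so the pieces were mixed tissue, in which fewer cells of a type and less RNA per cell cannot be told apart.

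The arrays did not all resemble their group. Proximal replicate 2 lay at least 2-fold from both other proximal arrays in 41 genes, 34 of them lower, and proximal replicate 3 did so in 19 genes. The count was 0 for proximal replicate 1 and 6, 2 and 1 for distal replicates 1, 2 and 3. The X-inactivation transcript Xist was at 6.37 in distal replicate 1, against 12.37 and 12.47 in distal replicates 2 and 3 and 11.74 to 13.03 in the proximal arrays. The Y-linked gene Eif2s3y was at 9.42, 8.56 and 8.38 distally, and at 8.51, 8.25 and 3.50 proximally. Distal replicate 1 therefore lacked high Xist, proximal replicate 3 lacked high Eif2s3y, and the other 4 arrays had both. The arrays of either piece were thus not all repeats of a single RNA sample. In distal mandible E12.5, by contrast, Xist was at 11.48, 11.51 and 11.49. Over all genes the root mean square SD was 0.119 in distal and 0.154 in proximal mandible E13.5. It was 0.11 and 0.144 at E12.5, and 0.11 and 0.128 in maxilla E13.5. For genes that vary most at E13.5, the pooled spread makes the SE too small. All 4 sex-linked genes measured were called (Eif2s3y, Kdm5d and Uty higher, Xist lower). Of these, 0 were called without distal replicate 1, without proximal replicate 3, or in fits of batch 1 or of the 6 arrays alone.

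At E13.5, 4609 of 18193 genes (25.3%) differed between distal and proximal mandible, 2263 higher distally (12.4%) and 2346 lower (12.9%). Of these, 187 were at least 2-fold higher and 490 at least 2-fold lower. The 3 distal and 3 proximal arrays did not overlap for 7277 genes (40.0%), and the median difference over all genes was 0.01. The shares of 12.4%, 12.9% and 40.0% are those to set beside the counts of list members below.

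**Figure D1:**
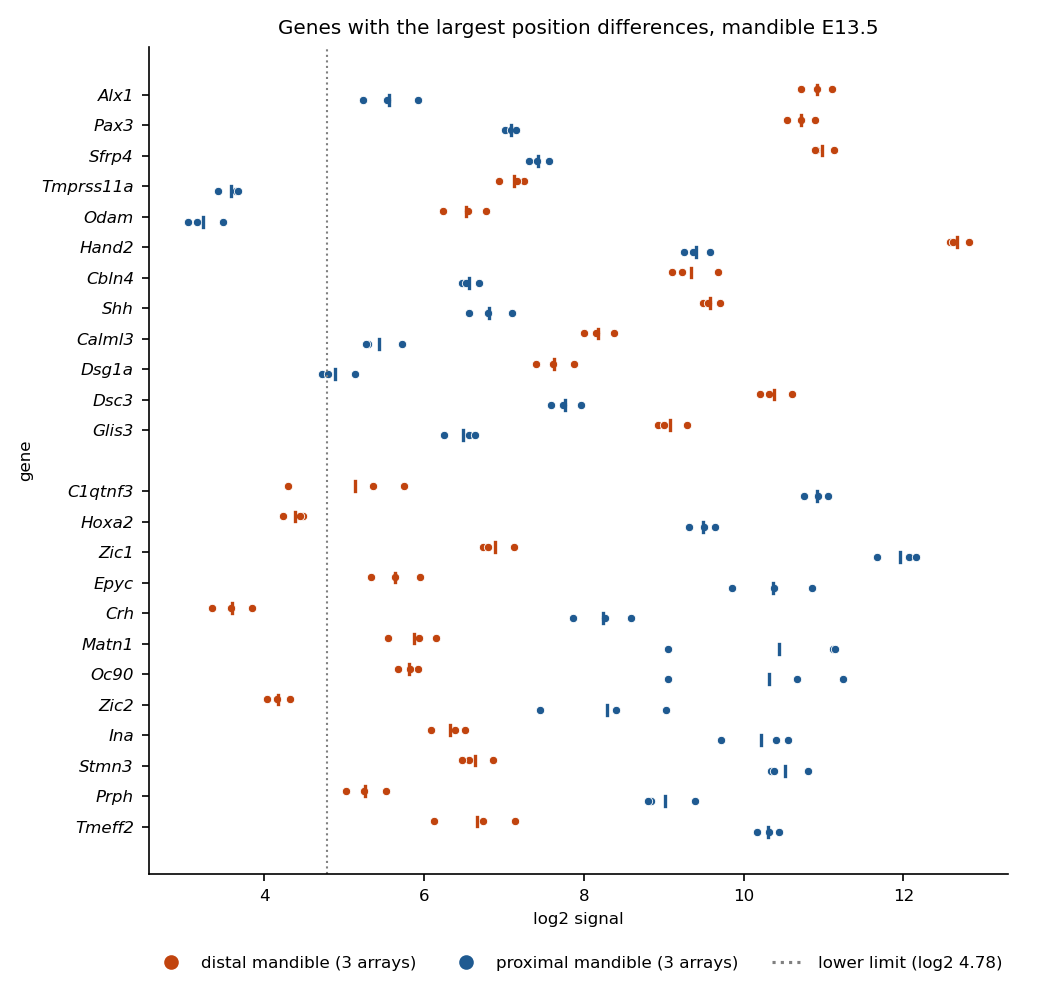
Log2 signal (horizontal) of 24 genes (vertical), the 12 largest rises and 12 largest falls among called genes that meet the naming rule, under which distal and proximal arrays do not overlap, with a point for each array and a bar for each mean. Distal arrays are drawn above proximal arrays for each gene, and the dotted line marks the limit of 4.78.

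Alx1, a homeobox factor of craniofacial mesenchyme, showed the largest rise. Its signal was 10.72, 11.11 and 10.92 in distal mandible, against 5.54, 5.23 and 5.93 in proximal mandible, a difference of 5.35 ± 0.26 (SE, 40.9-fold; adjusted p = 4.55e-22). Hand2, a basic helix-loop-helix factor that specifies the distal arch, was at 12.59, 12.83 and 12.62 distally and at 9.37, 9.58 and 9.25 proximally, which is 9.68-fold higher (3.28 ± 0.12, adjusted p = 1.52e-27). Dimmer Hand2 probe sets rose less, by 1.31 and 1.85. The distal arrays lay far above the proximal ones for both genes.

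Of the 12 measured distal arch patterning genes, 9 rose and 0 fell, against 12.4% of all genes that rose, with a median difference of 0.96 (0.54 with the mean of each gene's probe sets). The T-box factors Tbx3 and Tbx2 rose by 1.31 and 1.30. The homeobox factor Msx1, which acts in tooth and jaw mesenchyme, was at 11.39, 11.48 and 11.53 distally and at 10.00, 10.04 and 10.00 proximally (1.45 ± 0.23, adjusted p = 1.05e-06). Msx2, Pax9 and Alx4 rose less, by 0.63, 0.44 and 0.39. Hand1 (0.17), Isl1 (-0.14) and Gata3 (-0.06) were not called. Isl1 in particular overlapped, at 9.41, 9.54 and 9.32 distally and 9.62, 9.11 and 9.97 proximally.

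Pax3, a paired-box factor of neural crest and muscle progenitors, was at 10.54, 10.89 and 10.72 distally and 7.01, 7.09 and 7.15 proximally (3.63 ± 0.15, 12.4-fold, adjusted p = 1.95e-25). Sfrp4, a secreted Wnt antagonist, was at 10.91, 10.89 and 11.13 distally and 7.31, 7.56 and 7.41 proximally (3.55 ± 0.29, 11.7-fold, adjusted p = 3.42e-14). Glis3, a zinc finger factor, rose by 2.59 ± 0.28 (adjusted p = 1.01e-10), and Cbln4, a secreted cerebellin-family protein, by 2.78 ± 0.21 (adjusted p = 5.28e-15). None of these genes had overlapping arrays, which the naming rule required.

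Of the 16 measured hedgehog pathway genes 9 rose and 3 fell, against 12.4% of all genes that rose and 12.9% that fell. The median was 0.33 (0.31 with Ihh at its bound). The secreted ligand Shh was at 9.49, 9.71 and 9.55 in distal mandible, against 6.56, 6.80 and 7.10 in proximal mandible (2.76 ± 0.23, 6.79-fold, adjusted p = 3.32e-14). A dimmer Shh probe set rose by 0.70. The Shh receptor Ptch1, which is itself a target of the pathway, was at 11.63, 11.77 and 11.79 distally and 10.54, 10.66 and 10.97 proximally (1.01 ± 0.08, adjusted p = 7.88e-15). The transcription factor and target Gli1 was at 8.55, 8.60 and 8.59 distally and 7.48, 7.64 and 7.54 proximally (1.03 ± 0.07, adjusted p = 1.21e-17). In each of these 3 genes the arrays separated without overlap, which the naming rule for the largest differences required of Shh.

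The antagonist Hhip, which binds hedgehog ligands, rose by 1.5, and the forkhead genes Foxf1 and Foxf2, known targets in facial mesenchyme, rose by 1.57 and 1.03. Gli2, Gli3 and the signal transducer Smo rose by 0.42, 0.32 and 0.17. The ligand Dhh, known from Schwann cells, fell by 0.81, the forkhead factor Foxd1 by 1.05 and the co-receptor Cdon by 0.25. The co-receptors Boc (-0.23) and Gas1 (0.10), the inhibitor Sufu (0.09) and the cartilage ligand Ihh (0.35) were not called.

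Among 22 Bmp pathway genes 7 rose and 4 fell, against 12.4% of all genes that rose and 12.9% that fell. The median was 0.02, close to that of all genes. The ligand Bmp4 was at 11.39, 11.46 and 11.40 distally and 10.04, 9.86 and 10.04 proximally (1.43 ± 0.18, adjusted p = 4.40e-09). The ligands Bmp6, Bmp7 and Bmp2 rose by 1.48, 0.53 and 0.49, while Bmp5 and Gdf5, a ligand of joint formation, fell by 0.81 and 1.09. The feedback inhibitors Bambi, Smad6 and Smad7 rose by 1.32, 0.85 and 0.72. The receptor Bmpr1b fell by 1.28 and the extracellular modulator Bmper fell by 2.34 (adjusted p = 6.78e-16).

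Of the 13 Wnt targets and antagonists 10 rose and 2 fell, with a median of 0.73. The receptor-clearing ligases Znrf3 and Rnf43 rose by 0.73 and 1.0. Nkd1, another feedback inhibitor, rose by 0.88. The secreted antagonist Frzb rose by 0.73, and the 2 genes that fell, Sfrp1 and Sfrp2, are secreted antagonists too. Sfrp1 was at 9.67, 9.18 and 9.65 distally and 10.89, 10.78 and 10.88 proximally (-1.35 ± 0.08, adjusted p = 8.39e-19). Sfrp2 fell by 1.18.

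The Fgf list was divided, with 5 members higher and 6 lower of 21 (median -0.06), and 3 higher without distal replicate 2. The receptors Fgfr2 and Fgfr1 rose by 0.90 and 0.63, and Fgfr4, a receptor of developing muscle, fell by 1.48. The ligand Fgf7 fell by 1.31 and the feedback inhibitors Il17rd and Spry2 by 0.64 and 0.63. In the retinoic acid list 1 of 13 rose and 5 fell (median -0.22). The synthesizing enzymes Aldh1a3 and Aldh1a2 fell by 1.17 and 1.10, and the degrading enzyme Cyp26b1 rose by 0.55. The call of Cyp26b1 was lost in 5 of the 6 fits that leave out an array, all but the one without distal replicate 1. The endothelin list had 1 rise and 3 falls among 10 genes, including the receptor Ednrb, which fell by 0.93. In fits of batch 1 or of the compared arrays alone it had 3 rises and 3 falls. Over all genes 12.4% rose and 12.9% fell, so the single rises of the retinoic acid and endothelin lists were no larger than that share.

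Of 20 tooth development genes, which share Msx1, Shh, Bmp4 and others with the lists above, 14 rose and 1 fell (median 0.84, 0.48 with the mean of each gene's probe sets). Lhx8, a LIM homeobox factor of dental mesenchyme, was at 10.97, 11.11 and 11.00 in distal mandible, against 8.72, 8.87 and 8.77 in proximal mandible (2.24 ± 0.07, 4.71-fold, adjusted p = 1.81e-29). Sostdc1, an inhibitor of Bmp and Wnt signals in tooth germs, rose by 1.51, Bcl11b by 1.18 and Edaradd, the adaptor of the ectodysplasin receptor, by 0.88. The exception was Barx1, a factor of molar mesenchyme, which was at 8.32, 7.77 and 8.46 distally and 10.10, 10.14 and 9.93 proximally (-1.88 ± 0.13, adjusted p = 4.30e-16).

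Surface epithelium was higher distally. Of its 21 markers 17 rose and 0 fell (median 1.10), and the mean of the list was 9.51 to 9.69 in the distal arrays and 8.61 to 8.74 in the proximal arrays. Trp63, the master factor of stratified epithelium, was at 11.11, 11.17 and 10.87 distally and 9.63, 9.82 and 9.37 proximally (1.45 ± 0.10, adjusted p = 1.67e-16). The splicing regulators Esrp1 and Esrp2 rose by 1.30 and 1.14, the keratin Krt5 by 1.59 and Tfap2c by 2.05. Ovol1 rose too, but its proximal mean was under the limit.

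Several leading distal genes belong to differentiating oral epithelium or tooth. Tmprss11a, an airway-type serine protease, was at 7.25, 7.17 and 6.94 distally and 3.65, 3.42 and 3.66 proximally, at least 5.06-fold higher (adjusted p = 2.83e-24). Odam, an odontogenic ameloblast-associated protein, was at 6.78, 6.54 and 6.24 distally and 3.04, 3.16 and 3.49 proximally, at least 3.34-fold higher (adjusted p = 1.52e-25). Both were below the limit in all proximal arrays. The desmosomal cadherins Dsg1a and Dsc3 rose by 2.75 ± 0.18 and 2.61 ± 0.23, and the calmodulin-like epithelial protein Calml3 by 2.75 ± 0.18. A second Dsc3 probe set was not called (0.13). The parts that surface epithelium content takes in the differences of Shh, Tmprss11a and Odam were not tested.

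Of 13 bone genes 7 rose and 0 fell (median 0.62). In fits of batch 1 or of the compared arrays alone 7 rose and 2 fell. Alpl, the tissue-nonspecific alkaline phosphatase needed for mineral, was at 9.30, 9.19 and 9.43 distally and 7.90, 7.90 and 8.01 proximally (1.37 ± 0.21, adjusted p = 6.10e-07). Sp7, the osteoblast-determining zinc finger factor whose values are given above, rose by 0.99 ± 0.16 (adjusted p = 2.99e-06). Omd and Ifitm5, a matrix and a membrane protein of osteoblasts, rose by 1.09 and 0.66. With each of the 6 arrays left out in turn, between 4 and 6 bone genes were called higher, so leaving out distal replicate 1, distal replicate 3 or proximal replicate 1 lowered the count from 7 to 4. Of 10 osteoclast genes 5 rose and 1 fell (median 0.27, 0.08 with members under the limit at their bound). The gelatinase Mmp9 rose by 1.54 ± 0.19 and the vacuolar proton pump subunit Atp6v0d2 by 1.25, while Nfatc1 fell by 1.02.

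**Figure D2:**
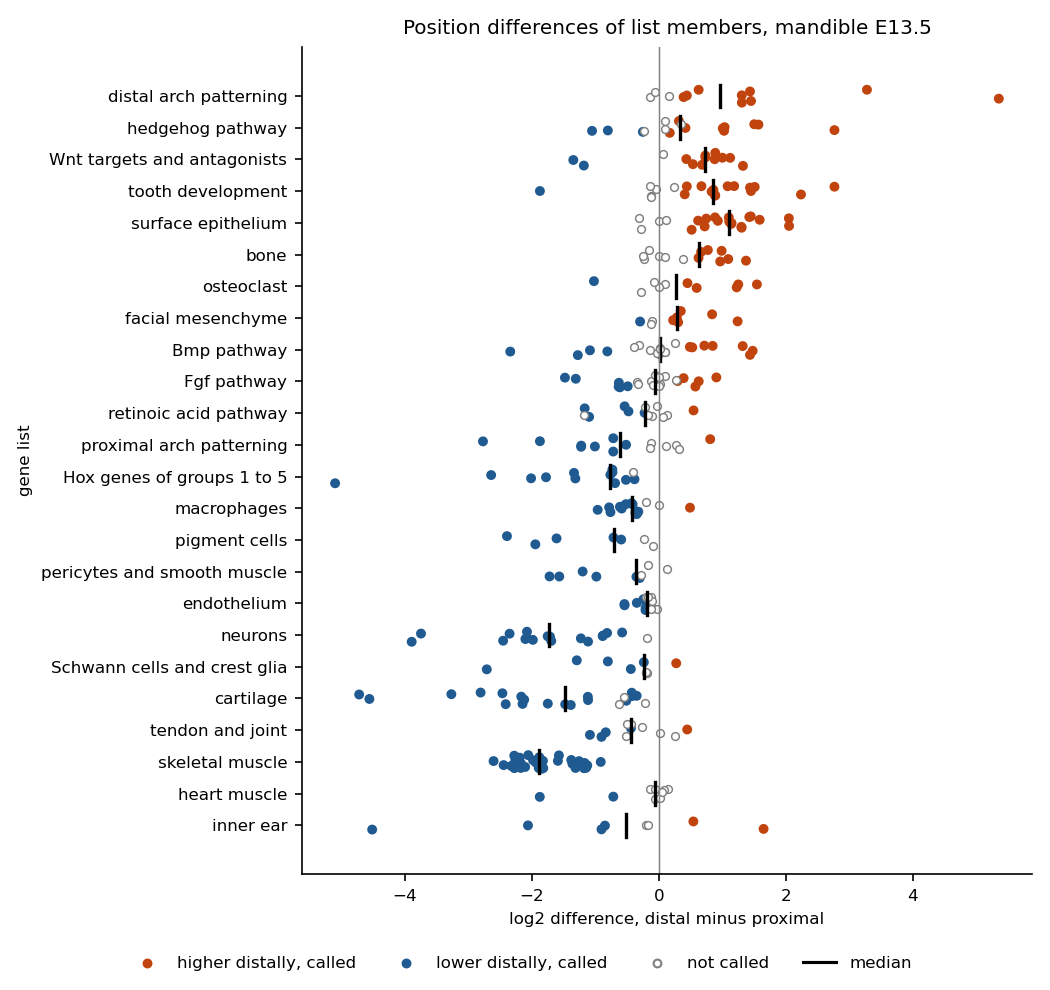
Log2 difference, distal minus proximal, of each measured member of 24 gene lists at E13.5, with called members filled (orange higher, blue lower) and others open, and a black bar at each list's median. All 31 skeletal muscle genes lie left of 0, as do 17 called neuronal genes, while 17 surface epithelium genes lie to the right.

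The genes lower in distal mandible fell into several groups. Hoxa2, the Hox gene that specifies the second arch, was at 4.49, 4.44 and 4.23 in distal mandible, against 9.50, 9.64 and 9.32 in proximal mandible, at least 26.2-fold lower (adjusted p = 5.30e-20). It was under the limit in every distal array and well above it in every proximal array. Of the 13 measured Hox genes of groups 1 to 5, 12 fell and 0 rose, against 12.9% of all genes that fell, with a median of -0.77 (-1.34 with the mean of each gene's probe sets). Without proximal replicate 2, 9 were called lower. Only 11 of the 13 had a group mean above the limit, so not all 12 that fell were shown to be present. Hoxb2 was at 6.92, 6.28 and 6.58 distally and 9.33, 9.38 and 8.99 proximally (-2.64 ± 0.21, adjusted p = 1.33e-14).

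Hoxd3 fell by 2.01 and Hoxd1 by 1.78. The more posterior genes Hoxb5 and Hoxc4 were highest in proximal replicate 2. Hoxc4 was at 7.42, 6.49 and 6.63 distally and at 7.82, 8.98 and 7.76 proximally (-1.34 ± 0.22), and its difference was -0.94 without proximal replicate 2. Hoxb5 was at least 1.84-fold lower, and 0.91 lower on the log2 scale without that array.

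Of 14 measured genes on the list named proximal arch patterning 8 fell and 1 rose (median -0.62, -0.56 with members under the limit at their bound). The name is only a label, since the list holds Dlx factors of different nested domains. The nuclear receptor Nr2f1 was at 9.32, 9.14 and 9.16 distally and 11.90, 11.96 and 12.06 proximally (-2.77 ± 0.19, 6.83-fold lower, adjusted p = 4.98e-17). Its relative Nr2f2 fell by 1.22. Of the Dlx factors, Dlx1 (-1.23), Dlx4 (-1.01), Dlx6 (-0.72) and Dlx5 (-0.52) fell, and Dlx2 (-0.12) and Dlx3 (0.11) were not called. Barx1 fell as given above. The homeobox gene Emx2 went the other way, at 9.91, 10.28 and 9.83 distally and 9.03, 9.40 and 9.17 proximally (0.81 ± 0.25, adjusted p = 0.0104). It was not called without distal replicate 2 or without proximal replicate 1. Gbx2 fell, with its distal mean under the limit, and Gsc (0.26), Pou3f3 (0.31) and Eya1 (-0.15) were not called.

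C1qtnf3, a secreted complement-related protein of cartilage and connective tissue, had the largest fall. Its signal was 5.36, 4.30 and 5.75 in distal mandible, against 11.06, 10.75 and 10.94 in proximal mandible (-5.78 ± 0.23, 55.0-fold lower, adjusted p = 1.52e-25). The spread among distal arrays was wide but did not approach the proximal arrays. Tmeff2, a transmembrane protein with follistatin domains, was at 7.14, 6.12 and 6.74 distally and 10.32, 10.44 and 10.17 proximally (-3.65 ± 0.20). A second Tmeff2 probe set fell by 3.50 and another, dimmer on average, was not called (0.19).

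Cartilage genes were lower distally, and the size of the difference depended on the proximal array. Of 21 measured cartilage genes 18 fell and 0 rose (median -1.48). The list mean was 7.33 to 7.49 in distal arrays and 9.42, 8.37 and 9.74 in proximal replicates 1, 2 and 3. Epyc, a small proteoglycan of cartilage, was at 5.63, 5.95 and 5.34 distally and 10.39, 9.85 and 10.85 proximally (-4.72 ± 0.17, 26.4-fold lower, adjusted p = 4.00e-27). Matn1, a matrix protein of mature cartilage, was at 6.15, 5.55 and 5.93 distally and 11.12, 9.05 and 11.14 proximally (-4.56 ± 0.33, adjusted p = 3.69e-16).

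Col2a1, the chain of the main cartilage collagen, was at 9.44, 8.96 and 9.36 distally and 12.21, 10.59 and 12.36 proximally (-2.47 ± 0.22, adjusted p = 7.14e-13). Sox9, the factor that sets up cartilage, fell by 1.75 and the collagen chain Col9a1 by 2.12. Proximal replicate 2 lay between the distal arrays and the other 2 proximal arrays in Matn1 and Col2a1. The SE and p of both genes rest on the spread pooled over all groups. Their own proximal arrays had SDs of 1.20 and 0.98. Without proximal replicate 2 the fall of Matn1 was 5.25 and that of Col2a1 3.03 on the log2 scale, 20 of 21 cartilage genes were called lower and the median was -2.03. With proximal replicate 3 left out 16 were lower, with a median of -1.15. Among the 5 hypertrophic cartilage genes 3 rose (median 0.59, 0.31 with members under the limit at their bound), among them the receptor Pth1r, which rose by 0.62. Mmp13 was called too, but both its group means were under the limit. Without distal replicate 1 or 2, or without proximal replicate 2 or 3, 2 of the 5 were called higher.

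Skeletal muscle genes were lower distally throughout the list. All 31 measured members fell, against 12.9% of all genes, and the median was -1.89. None of the members had overlapping arrays, and 40.0% of all genes had none either. Myf6 was the only member with a group mean under the limit. The mean over the list was 8.15 to 8.98 in distal arrays and 10.17 to 10.66 in proximal arrays. Distal replicate 2 was the lowest distal array and distal replicate 3 the highest, and proximal replicate 3 was the lowest proximal array. Leaving out each of the 6 arrays in turn called 30 or 31 of the 31 lower.

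Myogenin (Myog), the factor that starts muscle differentiation, was at 10.19, 9.54 and 10.32 in distal mandible, against 11.63, 11.77 and 11.42 in proximal mandible (-1.59 ± 0.16, adjusted p = 2.27e-11). Ckm, the muscle creatine kinase, was at 6.50, 6.01 and 6.26 distally and 8.16, 8.56 and 7.73 proximally (-1.89 ± 0.16, adjusted p = 5.13e-14). The thin-filament genes Tnni2 (-2.26) and Tnnt3 (-2.33) fell, as did Des, the intermediate filament of muscle (-1.36). Mymk, a protein required for myoblast fusion, fell by 1.94. The largest fall on the list was 2.61 and the smallest 0.92, so every member lay on the same side. Of 4 head muscle regulators only Msc (fell by 1.43) and Tbx1 (rose by 0.41) were called.

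Myogenic factors bind E-boxes, of which CAGCTG is a common form. This 6-letter motif, which reads the same on both strands and is a case of the wider motif CANNTG, was searched in RefSeq windows of 300 bases, from 250 before to 50 after each gene start (GRCm38.p6). It lay in 5355 of 32851 windows in the table (16.3%). Of the 31 skeletal muscle genes 25 had a window, 28 windows in all, and 11 windows (39.3%) held it, in 10 genes. For the neuronal genes it lay in 7 of 17 windows (41.2%), a share no lower than that of muscle. For cartilage it lay in 6 of 24 (25.0%) and for surface epithelium in 2 of 12 (16.7%). A match is a description of the letters in these windows. The 4 skeletal muscle genes of smallest p that hold the motif are shown to give the sequence context of genes that fell together, with the motif in capitals.
Ckm (chr7:19410844-19411143, plus strand): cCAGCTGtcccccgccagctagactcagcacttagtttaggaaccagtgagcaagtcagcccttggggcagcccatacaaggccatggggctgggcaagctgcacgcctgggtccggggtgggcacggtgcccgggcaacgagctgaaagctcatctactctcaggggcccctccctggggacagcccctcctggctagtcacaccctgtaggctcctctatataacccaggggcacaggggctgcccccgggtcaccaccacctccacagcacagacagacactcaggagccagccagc
Des (chr1:75360042-75360341, plus strand): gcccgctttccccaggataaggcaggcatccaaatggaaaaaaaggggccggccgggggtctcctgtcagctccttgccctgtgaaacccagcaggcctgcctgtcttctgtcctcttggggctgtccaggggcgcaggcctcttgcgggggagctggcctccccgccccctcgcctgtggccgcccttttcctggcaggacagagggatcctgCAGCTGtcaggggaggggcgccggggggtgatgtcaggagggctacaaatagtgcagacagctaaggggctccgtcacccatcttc
Tnni1 (chr1:135799171-135799470, plus strand): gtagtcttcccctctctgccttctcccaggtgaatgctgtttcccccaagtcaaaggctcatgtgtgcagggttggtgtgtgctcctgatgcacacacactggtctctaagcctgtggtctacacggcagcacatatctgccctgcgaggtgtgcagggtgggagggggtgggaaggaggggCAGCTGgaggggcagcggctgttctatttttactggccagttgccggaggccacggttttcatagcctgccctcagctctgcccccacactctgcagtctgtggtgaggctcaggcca
Cav3 (chr6:112459255-112459554, plus strand): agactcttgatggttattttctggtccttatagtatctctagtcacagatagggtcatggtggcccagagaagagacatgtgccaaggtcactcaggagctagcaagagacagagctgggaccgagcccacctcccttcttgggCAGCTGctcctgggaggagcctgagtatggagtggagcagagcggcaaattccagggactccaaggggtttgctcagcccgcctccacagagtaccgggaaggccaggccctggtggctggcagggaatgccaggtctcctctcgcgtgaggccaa

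The motif starts 249 bases before the annotated start in Ckm, 36 in Des, 68 in Tnni1 and 106 in Cav3. Beyond Ckm and Des, whose values are above, Tnni1, the slow troponin I, was at 9.94, 9.33 and 10.43 distally and 12.23, 12.31 and 11.78 proximally (-2.21 ± 0.29, adjusted p = 2.53e-08). Cav3, the muscle caveolin, was at 7.13, 6.38 and 7.57 distally and 9.002, 9.04 and 8.52 proximally (-1.83 ± 0.26, adjusted p = 1.70e-07). All 4 genes were lower in every distal array than in any proximal array, as were all 31 members of the list they were chosen from.

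Neuronal genes were lower distally in 17 of 18 cases, with 0 higher and a median of -1.73 (-1.72 with members under the limit at their bound). With the mean of each gene's probe sets in place of the brightest, 17 were lower with a median of -1.0. The list mean was 6.86 to 6.91 in distal arrays and 8.55 to 8.75 in proximal arrays, so the arrays of each group lay close together. Prph, an intermediate filament of peripheral neurons, was at 5.52, 5.02 and 5.25 distally and 9.39, 8.85 and 8.80 proximally (-3.75 ± 0.23, 13.4-fold lower, adjusted p = 3.05e-18). The other 3 Prph probe sets, all dimmer on average, were not called (-0.22, -0.03 and 0.04). Ina, the alpha-internexin filament, was at 6.51, 6.09 and 6.39 distally and 10.55, 9.72 and 10.40 proximally (-3.90 ± 0.31, adjusted p = 1.05e-14). Stmn3, a neuronal microtubule regulator, fell by 3.88 ± 0.29.

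The neuronal tubulin Tubb3 fell by 2.35 and the neurofilament Nefl by 2.45. Of 9 glial genes 5 fell and 1 rose, including the radial-glial and Schwann lineage marker Fabp7, which fell by 2.71, and Sox10, which fell by 0.81. Without distal replicate 2 or without proximal replicate 2 3 glial genes were called lower. Of 7 pigment cell genes 5 fell and 0 rose (median -0.72, -0.60 with members under the limit at their bound). Dct, a melanin synthesis enzyme, was at 5.96, 6.00 and 6.08 distally and 8.48, 8.30 and 8.44 proximally (-2.39 ± 0.27, adjusted p = 6.20e-10).

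Vessel and blood lists shifted less. Of 9 pericyte and smooth muscle genes 6 fell, among them Rgs5 (by 1.72) and the channel subunit Abcc9 (by 1.20). Of 14 endothelial genes 7 fell and 0 rose (median -0.20), with Kdr, the main Vegf receptor, lower by 0.35. Without distal replicate 2 the endothelial count was 3. Of 16 macrophage genes 13 fell and 1 rose (median -0.42), and the complement genes C1qa, C1qb and C1qc fell by 0.76, 0.79 and 0.97. Leaving out single arrays put between 8 and 14 macrophage genes lower, with 8 without distal replicate 2 or proximal replicate 2. Of 11 red cell genes 3 fell and 0 rose, of 11 tendon and joint genes 4 fell and 1 rose, and of 9 heart muscle genes 2 fell, against 12.9% of all genes that fell and 12.4% that rose. Without proximal replicate 1 the red cell count was 1, and the tendon rise was lost in 5 of the 6 fits that leave out an array, all but the one without distal replicate 1.

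Other lists bore on proliferation and handling. Of 19 cell cycle genes 6 rose and 0 fell (median 0.10), and the largest of the 6 was 0.25 in Bub1 and Cenpa. Of 10 immediate early and heat shock genes 2 rose and 3 fell, and of 11 hypoxia and glycolysis genes 2 rose and 2 fell, against 12.4% of all genes that rose and 12.9% that fell. With single arrays left out these counts were 1 or 2 for both rises, 1 or 2 for the hypoxia falls and 2 or 3 for the immediate early falls. Of 9 facial mesenchyme genes 6 rose and 1 fell (median 0.28), with the neural crest factors Tfap2a and Tfap2b higher by 1.24 and 0.84 and Pdgfra lower by 0.30. Of 9 mast cell genes 1 rose and 2 fell, with 1 lower without proximal replicate 3. Of 5 salivary gland genes only Sox10 was called, and of 5 pharyngeal derivative genes only Tbx1. Tbx1 was not called without distal replicate 1, distal replicate 2, proximal replicate 1 or proximal replicate 2.

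Genes known from the brain, the choroid plexus or the inner ear were measured in the proximal piece. Zic1, a zinc finger factor of dorsal neural tube and mesenchyme, was at 7.13, 6.74 and 6.80 in distal mandible, against 12.07, 11.68 and 12.15 in proximal mandible (-5.08 ± 0.40, 33.7-fold lower, adjusted p = 1.49e-14). Zic2 was at 4.04, 4.15 and 4.32 distally and 8.41, 7.45 and 9.03 proximally, at least 11.4-fold lower (adjusted p = 1.26e-16). Crh, the corticotropin-releasing hormone, was at 3.58, 3.35 and 3.84 distally and 7.86, 8.26 and 8.59 proximally, at least 11-fold lower (adjusted p = 2.16e-17). All 3 separated without overlap, which the naming rule required.

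Oc90, an otoconial matrix protein of the inner ear, was at 5.92, 5.68 and 5.82 distally and 10.67, 9.06 and 11.25 proximally (-4.52 ± 0.24, adjusted p = 9.87e-21). That SE rests on the pooled spread, while the proximal arrays of Oc90 had an SD of 1.14. Otog and Tecta, proteins of the inner ear's acellular membranes, fell by 0.85 and 0.91, and of the 8 inner ear genes 4 fell and 2 rose. Otx1 and Sox2 were those that rose, and 1 was called higher without proximal replicate 2. The head homeobox factor Otx2 was called lower, but its arrays overlapped: 4.32, 4.14 and 3.96 distally and 6.52, 4.09 and 7.99 proximally. Proximal replicate 2 thus sat with the distal arrays for this gene.

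Ttr, the thyroid hormone carrier abundant in choroid plexus, followed the same arrays. It was at 6.17, 6.39 and 6.50 distally and 11.98, 6.43 and 13.31 proximally (-4.22 ± 0.76, adjusted p = 1.77e-05), with a fall of 6.29 without proximal replicate 2 and of 0.08 for that array alone. The SE and p of Ttr rest on the spread pooled over all groups, while its proximal arrays had an SD of 3.65. The potassium channel subunit Kcne2, chosen after its values were seen, was at 4.21, 4.19 and 4.16 distally and 7.44, 4.17 and 9.03 proximally. The channel gene Kcnj13, the transporter gene Slc4a10 and the serotonin receptor gene Htr2c, chosen in the same way, also had their lowest proximal value in replicate 2. In Ttr, Kcne2 and Otx2 the rank of the proximal arrays was replicate 3, 1, 2, as for the cartilage list mean and Oc90. The part that the composition of single proximal pieces plays in the cartilage, Oc90 and Ttr differences was not tested. The differences of Matn1, Col2a1 and Oc90 were larger without proximal replicate 2.

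**Figure D3:**
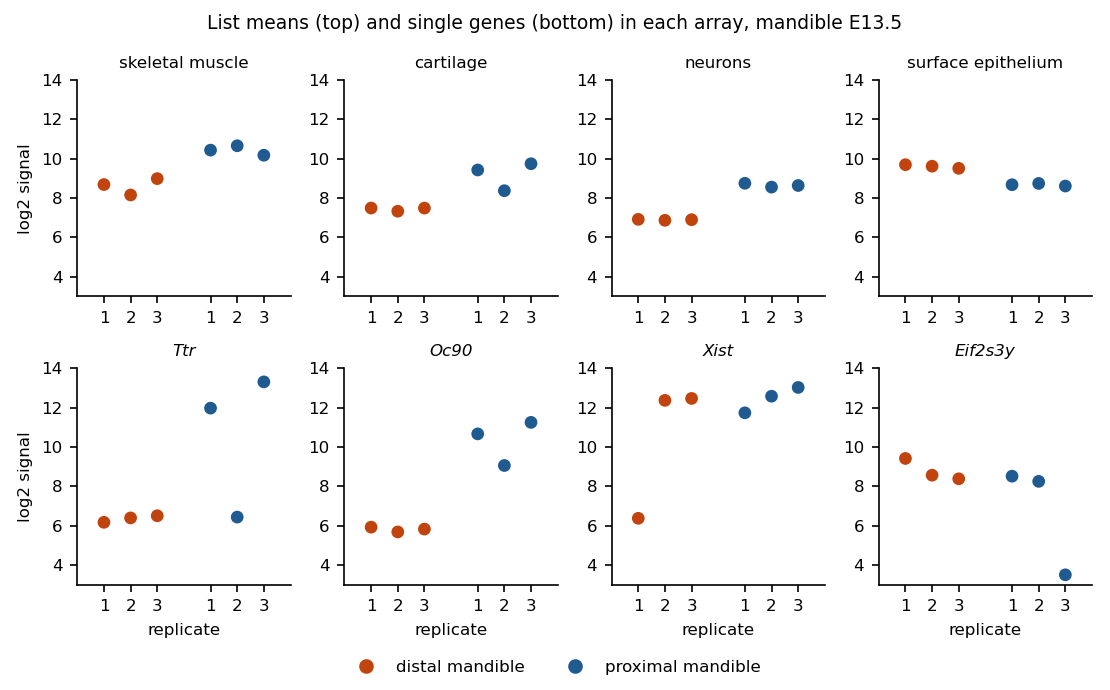
Log2 signal in each of the 3 distal (orange, left) and 3 proximal (blue, right) arrays, as list means in the upper row and single genes in the lower row. Cartilage, Ttr and Oc90 are lowest in proximal replicate 2 among the proximal arrays, Xist is low in distal replicate 1 and Eif2s3y in proximal replicate 3.

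The position differences of E13.5 mandible were set against those of the neighbouring settings. Against mandible E14.5, which has other arrays of the same batch, 3074 genes were called in both with the same sign, which is 66.7% of the genes called at E13.5 and 63.1% of those at E14.5, and 21 with opposite signs. Against mandible E12.5 the figures were 2571 genes, 55.8% and 43.2%, with 232 opposite. Against maxilla E13.5 they were 1363 genes, 29.6% and 47.7%, with 130 opposite.

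**Figure D4:**
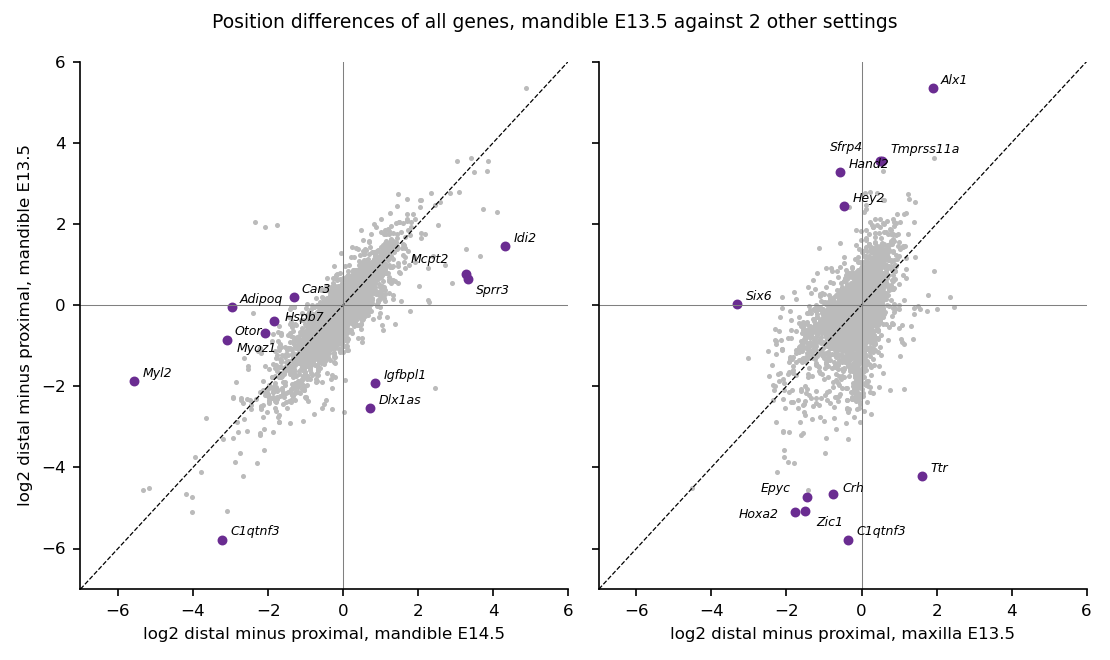
Log2 difference, distal minus proximal, of all 18193 genes in mandible E13.5 (vertical) against mandible E14.5 (left panel) and maxilla E13.5 (right panel), with the genes of largest difference between settings in purple and the line of equality dashed. Myl2 lies left of the line in the left panel, and Hand2, Alx1, C1qtnf3 and Ttr lie far from the line in the right panel.

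Position differences that differed from E14.5 were tested in the same model as a difference of differences, E13.5 minus E14.5, with all 4 groups in batch 1. They numbered 310 genes (1.70%), 76 upward (0.418%) and 234 downward (1.29%). Left out of the fit, distal mandible E14.5 replicate 1 lowered the count to 191. Myl2, a regulatory myosin light chain of heart and slow muscle, had distal values of 4.04, 4.07 and 4.14 and proximal values of 5.98, 7.05 and 4.85 at E13.5. At E14.5 its values were 4.65, 4.51 and 4.30 distally and 10.47, 9.45 and 10.26 proximally. The difference of -1.88 at E13.5 against -5.57 at E14.5 gave 3.69 ± 0.33 (adjusted p = 8.79e-12), and both distal means were under the limit.

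Other genes on that side were higher proximally at E14.5. Adipoq, the fat hormone adiponectin, was at 3.80, 3.64 and 3.60 distally and 3.70, 3.77 and 3.76 proximally at E13.5, with 5.61, 7.42 and 7.15 in proximal mandible at E14.5. Hspb7 and Myoz1, both of striated muscle, Car3, a carbonic anhydrase of muscle and fat, and Otor, a secreted protein of cartilage and inner ear, also had larger signed differences at E13.5 than at E14.5, by 1.44, 1.39, 1.51 and 2.26.

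Other genes had a smaller or more negative difference at E13.5 than at E14.5. Sprr3, a cornified envelope protein of stratified epithelium, was at 6.48, 6.15 and 6.24 distally and 5.68, 5.55 and 5.72 proximally at E13.5, and 9.26, 8.84 and 8.81 distally against 6.00, 5.46 and 5.50 proximally at E14.5 (-2.68 ± 0.19, adjusted p = 6.92e-15). Mcpt2, a mast cell protease, and Idi2, an isopentenyl diphosphate isomerase, had differences of -2.52 and -2.86, each with at least 1 group under the limit. Dlx1as, an RNA transcribed from the strand opposite Dlx1, was lower distally at E13.5 (-2.54) and not called at E14.5 (0.72). Igfbpl1 was lower distally at E13.5 (-1.93) and higher distally at E14.5 (0.85). Of the hedgehog genes Gli1 had a larger difference at E13.5 than at E14.5 (by 0.36 ± 0.09, adjusted p = 0.0274). Of the bone genes Sp7 (0.82 ± 0.23, adjusted p = 0.0458) and Ifitm5 (1.10 ± 0.25, adjusted p = 0.00883) did too, and the bone list's median was 0.62 at E13.5 against -0.17 at E14.5.

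Against E12.5, 2628 genes had a different position difference (14.4%), 1453 upward (7.99%) and 1175 downward (6.46%). Each difference was formed within its own batch, 1 for E13.5 and 2 for E12.5, so batch and age cannot be told apart here. Of the 31 skeletal muscle genes 22 went upward and 1 downward, and the list median was -1.89 at E13.5 against -3.67 at E12.5. Myl1, a fast myosin light chain, averaged 10.89 distally and 12.99 proximally at E13.5, against 7.19 distally and 12.03 proximally at E12.5 (2.73 ± 0.47, adjusted p = 3.97e-05). Myog (2.49 ± 0.23, adjusted p = 7.40e-11), Myl4 (3.02), Mylpf (2.70) and Tnnt2 (2.65) went the same way. The exception was Ckm (-1.67 ± 0.22, adjusted p = 2.97e-07), whose position difference was -0.22 at E12.5.

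Cartilage ran the other way, with 16 of 21 genes downward and 0 upward and a list median of -1.48 at E13.5 against -0.33 at E12.5. Matn1 averaged 5.88 distally and 10.44 proximally at E13.5, against 7.06 distally and 8.81 proximally at E12.5 (-2.82 ± 0.46, adjusted p = 1.73e-05). Matn3, another matrilin, was lower distally at E13.5 (-2.41) and not called at E12.5 (0.33). Sox9 (-1.49 ± 0.20) and Cnmd, the cartilage protein chondromodulin (-2.24 ± 0.49), were more negative at E13.5.

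Outside these lists, Odam was at 6.78, 6.54 and 6.24 in distal mandible at E13.5 and at 3.59, 3.60 and 3.82 in distal mandible at E12.5, where both pieces were under the limit. Lrrtm4, a synaptic adhesion protein, was higher distally at E13.5 (1.36) and lower at E12.5 (-1.32). Afp, the fetal albumin relative, was higher distally at E12.5 (2.47) and not called at E13.5 (-0.09). Gpm6a, a neuronal membrane glycoprotein, was lower distally at E13.5 (-1.15) and higher at E12.5 (1.24), and Tmem130 was lower at E13.5 (-2.54) and not called at E12.5 (-0.27). The osteoclast genes Mmp9 (1.22 ± 0.27) and Acp5 (1.38 ± 0.43) were more positive at E13.5.

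**Figure D5:**
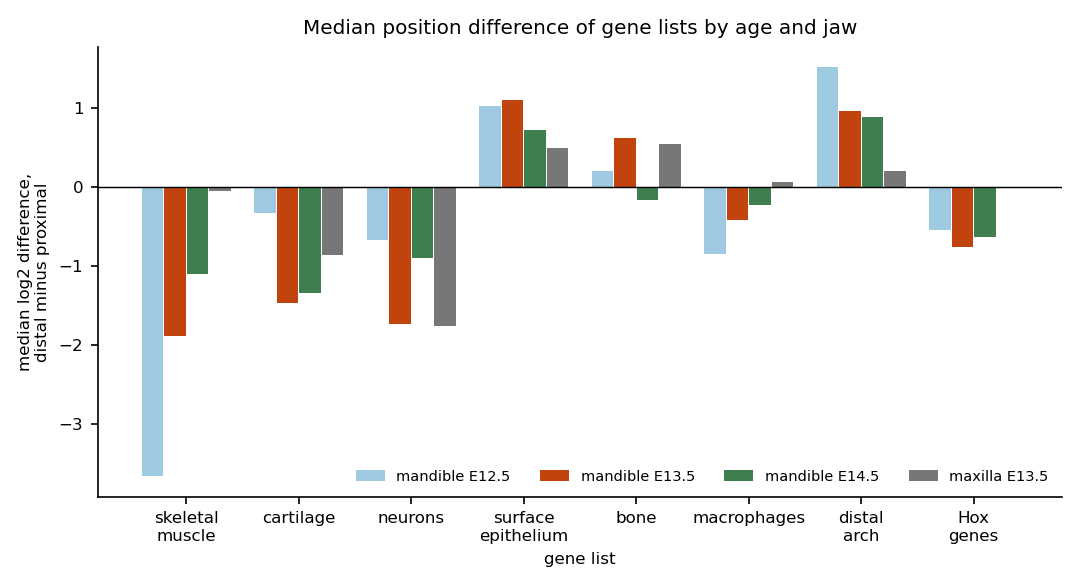
Median log2 difference, distal minus proximal (vertical), of the members of 8 gene lists in mandible E12.5, E13.5 and E14.5 and in maxilla E13.5. The skeletal muscle median is -3.67, -1.89 and -1.11 in the mandible by age and -0.05 in the maxilla, and the cartilage median at E13.5 is -1.48.

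Against the maxilla at the same age, 2289 genes had a different position difference (12.6%), 1284 upward (7.06%) and 1005 downward (5.52%). The 2 jaws lay in batches 1 and 2, so batch and jaw cannot be told apart. Hand2 averaged 12.68 distally and 9.40 proximally in the mandible, against 7.14 distally and 7.70 proximally in the maxilla (3.84 ± 0.16, adjusted p = 1.36e-23). Alx1 was higher distally in both jaws, by 5.35 in the mandible and 1.89 in the maxilla. Shh rose distally in the mandible and was not called in the maxilla (0.08), a difference of 2.68 ± 0.32 (adjusted p = 1.30e-08). Gli1 and Ptch1 differed by 0.75 and 0.80.

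The Notch target Hey2 was at 9.61, 10.09 and 9.52 distally and 7.10, 7.32 and 7.47 proximally in the mandible, and was not called in the maxilla (-0.47), a difference of 2.91 ± 0.39. Sfrp4 was not called in the maxilla either (0.48), a difference of 3.07 ± 0.41. Tmprss11a differed by 2.99 ± 0.22, with both maxilla groups under the limit. Six6, an eye and pituitary factor, was under the limit in both pieces of the mandible and lower distally in the maxilla, where its proximal mean was 7.54.

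Among genes lower distally in the mandible, Hoxa2 (-3.33), Zic1 (-3.58), Nr2f1 (-2.57) and Barx1 (-2.03) had a more negative difference there than in the maxilla. C1qtnf3 averaged 5.13 distally and 10.92 proximally in the mandible and 8.23 distally and 8.59 proximally in the maxilla (-5.42 ± 0.33, adjusted p = 1.09e-17). Epyc and Crh were more negative by 3.27 and 3.88. Ttr had a difference of -4.22 in the mandible and was not called in the maxilla (1.62), which gave -5.84 ± 1.08 (adjusted p = 8.23e-05), with the proximal mandible arrays spread as above.

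All 31 skeletal muscle genes had a more negative position difference in the mandible than in the maxilla, where the list median was -0.05 against -1.89 in the mandible. Myog differed by -1.49 ± 0.23 (adjusted p = 2.99e-06) and Tnni2 by -2.00 ± 0.27 (adjusted p = 2.82e-07). For the 18 neuronal genes the medians were -1.73 in the mandible and -1.77 in the maxilla, where all 18 were called lower, and 4 differences between jaws were upward and 2 downward. Bone medians were 0.62 in the mandible and 0.54 in the maxilla, and surface epithelium medians were 1.10 in the mandible and 0.50 in the maxilla.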

How the data were processed

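The values are log2 signals that, per the submitters' processing notes, the authors made with RMA (background correction, normalization between arrays and summary of probes). Neither the RMA version nor whether all 60 arrays were normalized together is named in the sources used here. No further normalization was applied. The table is complete, with values between 2.542 and 14.812, and no pair of arrays shared over 0.408% of its values. RNA was extracted with an RNeasy kit, and 3 micrograms of total RNA gave biotin-labelled cRNA, per the labels' protocols.

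Of 45101 probe sets, 64 controls were left out. The platform annotation gives 34945 a single symbol, 932 several and 9160 none, and 34741 of the single-symbol ones matched a RefSeq gene. For the 9010 of 18193 genes with several probe sets, the brightest on average over the 60 arrays stood for the gene.

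All 60 arrays entered a limma 3.58.1 fit (R 4.3.3) with a mean for each of 20 groups, 40 residual degrees of freedom, eBayes with trend, two-sided contrasts of distal minus proximal and Benjamini-Hochberg adjustment over all genes. The scripts were tested on simulated data.

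Named were the 12 called genes of largest difference per direction (6 for each difference between settings) with a mean of at least log2 6 in the higher group, no overlapping arrays at E13.5 (position comparison only), no predicted symbol and no sex linkage. Also named were up to 6 called members of smallest p per list, any member of the distal arch, proximal arch, hedgehog, Bmp and sex-linked lists, and the genes whose promoters are shown. Ttr in the position comparison, Kcne2, Kcnj13, Slc4a10, Htr2c and Myf6 were chosen after their values were seen. The comparison, the members of the 35 lists and these rules were chosen with earlier results of these data known. Alternatives were repeated quantile normalization, centring, other probe-set rules, dropping genes with no group mean of log2 9.65 or more, dropping single arrays, fits of batch 1 or of the compared arrays alone, eBayes variants, array weights, a replicate block and a 2-fold limit.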

Additional observations from a re-analysis of the deposited data

Results flagged for a closer look

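The genes below had a position difference in mandible E13.5 that differed from that of another setting by the test of the difference itself (limma, adjusted p under 0.05), and are the largest by the naming rule. Values are differences of log2 differences, and a positive one means a less negative or more positive distal-minus-proximal difference in mandible E13.5.

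Against mandible E14.5 the positive values were 3.69 for Myl2, 2.91 for Adipoq, 2.26 for Otor, 1.51 for Car3, 1.44 for Hspb7 and 1.39 for Myoz1. The negative values were -3.26 for Dlx1as, -2.86 for Idi2, -2.78 for Igfbpl1, -2.68 for Sprr3, -2.57 for C1qtnf3 and -2.52 for Mcpt2. Myl2, Adipoq, Idi2 and Mcpt2 had at least 1 group at or under the limit of 4.78, so their values depend on signals not shown to be present.

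Against mandible E12.5 the positive values were 3.02 for Myl4, 2.96 for Odam, 2.73 for Myl1, 2.70 for Mylpf, 2.68 for Lrrtm4 and 2.65 for Tnnt2. The negative values were -2.82 for Matn1, -2.74 for Matn3, -2.57 for Afp, -2.39 for Gpm6a, -2.26 for Tmem130 and -2.24 for Cnmd. Odam and Lrrtm4 had groups at or under the limit.

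Against maxilla E13.5 the positive values were 3.84 for Hand2, 3.46 for Alx1, 3.33 for Six6, 3.07 for Sfrp4, 2.99 for Tmprss11a and 2.91 for Hey2. The negative values were -5.84 for Ttr, -5.42 for C1qtnf3, -3.88 for Crh, -3.58 for Zic1, -3.33 for Hoxa2 and -3.27 for Epyc. Six6, Tmprss11a, Crh and Hoxa2 had groups at or under the limit.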

How the results depend on the processing

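The 3 arrays per group and the lack of detection calls limit the precision and what can be said of dim genes. The genes of largest difference (24 for position and 12 for each of the 3 differences between settings) kept sign and call in every alternative in which they were tested. They were chosen for large called differences in these same values, so this was a weak check. List members were followed by counts only, and some lost their calls, as given beside them. The counts of called genes moved with the rule applied. With a 2-fold limit they were 677 for position at E13.5, 94 against E14.5, 226 against E12.5 and 493 against the maxilla. Without dim genes, where 6070 genes were tested, they were 2305 for position, 113 against E14.5 and 1198 against the maxilla. With all 34945 probe sets as units position had 7120. With array weights they were 777 against E14.5, 4590 against E12.5 and 3763 against the maxilla, and the weight estimation stopped before converging. Leaving out each array in turn gave 3494 to 4155 for position, 191 to 312 against E14.5 (lowest without distal mandible E14.5 replicate 1), 2021 to 2741 against E12.5 and 1829 to 2162 against the maxilla. The replicate block gave 4528 genes for position, 283 against E14.5, 2541 against E12.5 and 2245 against the maxilla. Deviations of same-numbered distal and proximal arrays correlated at 0.18 (the highest of any pair), 0 and 0. Distal replicate 2 correlated best with proximal replicate 3 (0.12). With 3 arrays per group, whose deviations depend on one another, these values cannot decide whether the numbers pair the samples. Centring on array medians gave a median of all genes of 0.024, against 0.01 as deposited. List counts under the alternatives were added after seeing the data. Whether more members were higher or lower was the same in all 17 alternatives (16 for pigment cells, which had no member left without dim genes) for every list except the Fgf, osteoclast, endothelin, hypoxia, immediate early, head muscle, mast cell, inner ear, pharyngeal and sex-linked lists.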
